A study of Mus musculus with 4 samples.

Results

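The vomeronasal receptor genes of the mouse were followed through 4 RNA sequencing libraries of the fetal gonad. Members were all genes whose symbol begins with Vmn1r, Vmn2r, V1r or V2r, whatever their values. The family was chosen with earlier results of these data known. The files list 328 such symbols, 210 of type 1 and 118 of type 2, at 319 distinct positions (201 of type 1 and 118 of type 2), among 20299 genes in all. Positions listed under several symbols with the same values were counted once. The 6 positions shared by several receptor symbols all lie among the type 1 genes of chromosome 7, and 1 of them carries 5 symbols (Vmn1r107, Vmn1r130, Vmn1r137, Vmn1r155 and Vmn1r165). Vmn1r93, Vmn1r111 and Vmn1r118 share their rows with gene models under other symbols and were counted as receptors.

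The study asked, by its title, how widely and at what level fetal male germ cells transcribe their genome before it is methylated. Females of the CF1 strain carried litters of TgOG2 males, and all fetuses were taken at 15.5 days post coitum (dpc). In TgOG2 mice the Oct4 (Pou5f1) promoter drives an enhanced green fluorescent protein. Cells with the fluorescence were sorted from gonads as germ cells and cells without it as gonadal somatic cells, which gave a male germ, a female germ, a male somatic and a female somatic library, 1 of each. The somatic libraries therefore hold every gonadal cell without the reporter, red and white blood cells included. With 1 library per group, no difference between 2 libraries has a replicate check and none is given a p-value. In bulk RNA, fewer cells of a type and less RNA per cell cannot be told apart.

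Vomeronasal receptors are G protein-coupled receptors of the vomeronasal organ, the sense organ in the nasal septum with which mice detect pheromones and other social signals. Type 1 receptors have a single coding exon, sit in apical sensory neurons and couple to the G protein subunit Gnai2, whereas type 2 receptors have several coding exons and a large extracellular domain, sit in basal neurons and couple to Gnao1. Both kinds signal through the cation channel Trpc2, lie in large gene clusters, and each neuron expresses very few of them.

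Sequence from the start of 6 receptor genes is printed first, because they come from a cluster read mainly in somatic cells (chromosome 5) and one read in germ cells (chromosome 6). Each line holds the 250 bases just upstream of the annotated gene start, 5′ to 3′ on the gene's strand, from RefSeq on GRCm38.p6, with every CG dinucleotide in capitals. Vmn2r12 (chr5:109097865-109098114, minus strand) and Vmn2r13 (chr5:109192108-109192357, minus strand) had the highest receptor levels in the male somatic library. Vmn2r17 (chr5:109419763-109420012, plus strand) belongs to the same cluster and was listed at 0 in all 4 libraries.

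Vmn2r12: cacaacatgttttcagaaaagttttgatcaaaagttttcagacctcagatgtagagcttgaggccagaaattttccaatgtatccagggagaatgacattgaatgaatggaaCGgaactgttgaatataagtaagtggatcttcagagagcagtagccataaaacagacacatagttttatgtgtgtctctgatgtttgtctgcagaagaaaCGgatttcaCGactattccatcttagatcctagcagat
Vmn2r13: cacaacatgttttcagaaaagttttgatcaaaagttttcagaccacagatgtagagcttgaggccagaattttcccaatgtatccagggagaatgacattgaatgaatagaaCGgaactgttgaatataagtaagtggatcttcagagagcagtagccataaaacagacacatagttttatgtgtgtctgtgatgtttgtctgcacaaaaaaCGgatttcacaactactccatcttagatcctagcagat
Vmn2r17: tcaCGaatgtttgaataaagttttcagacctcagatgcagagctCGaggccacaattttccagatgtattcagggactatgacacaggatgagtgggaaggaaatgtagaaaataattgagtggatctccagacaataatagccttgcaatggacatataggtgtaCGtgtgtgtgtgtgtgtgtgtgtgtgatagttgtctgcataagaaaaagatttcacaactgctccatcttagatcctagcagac

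V1ra8 (chr6:90202567-90202816, plus strand) and Vmn1r52 (chr6:90178466-90178715, plus strand) are type 1 neighbours that were above 0 in male germ cells and at 0 in the other 3 libraries. Vmn1r50 (chr6:90107025-90107274, plus strand) lies in the same cluster and was listed at 0 throughout.

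V1ra8: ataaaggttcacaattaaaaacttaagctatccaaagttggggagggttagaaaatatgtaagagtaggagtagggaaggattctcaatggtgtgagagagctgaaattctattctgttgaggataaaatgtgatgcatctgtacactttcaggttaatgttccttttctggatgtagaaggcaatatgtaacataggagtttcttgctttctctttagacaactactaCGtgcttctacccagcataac
Vmn1r52: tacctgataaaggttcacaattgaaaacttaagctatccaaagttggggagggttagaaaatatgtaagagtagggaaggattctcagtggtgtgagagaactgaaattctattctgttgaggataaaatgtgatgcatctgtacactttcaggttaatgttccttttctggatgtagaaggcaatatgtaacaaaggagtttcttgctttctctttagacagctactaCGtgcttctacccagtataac
Vmn1r50: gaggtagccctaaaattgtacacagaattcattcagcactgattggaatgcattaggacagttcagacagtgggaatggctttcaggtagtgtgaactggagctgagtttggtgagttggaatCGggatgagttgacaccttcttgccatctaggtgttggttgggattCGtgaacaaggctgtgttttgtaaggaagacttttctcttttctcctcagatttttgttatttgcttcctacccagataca

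The upstream bases of Vmn2r12 and Vmn2r13 were 96.4% identical over their alignment, and those of V1ra8 and Vmn1r52 were 93.0% identical. The printed neighbours listed at 0 were less alike, with 72.2% identity between Vmn2r12 and Vmn2r17 and 56.9% between V1ra8 and Vmn1r50. Vmn1r50 was chosen from several genes at 0 in its cluster, and no other gene there was compared. Whether the read genes of that cluster are more alike upstream than its genes at 0 was therefore not tested. V1ra8 and Vmn1r52 also share transcript sequence, as given below. For scale, pairs of 1 type 1 and 1 type 2 gene among the 6 printed genes gave 51.6% to 54.5%. Of the other chromosome 5 genes, Vmn2r9, Vmn2r10, Vmn2r11 and Vmn2r14, which were above the detection floor in a somatic library, were 87.6% to 90.0% identical to Vmn2r12. Vmn2r8, Vmn2r15 and Vmn2r16, which were not, were 82.3%, 87.7% and 81.6% identical. In 254 of the 293 receptor genes with a RefSeq entry the annotated start is itself an ATG, so these bases lie upstream of the start codon of a gene model without a 5′ leader, and the true start of transcription may lie further away.

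These upstream regions are poor in CG dinucleotides. In windows from 250 bases upstream to 50 downstream of the start, receptor genes held a median of 1 CG (at most 6), against a median of 7 over 27025 RefSeq genes. No CG was found in 25.6% of receptor windows, against 5.78% of all. None of the 293 receptor windows had 10 or more CG, against 43.9% of all windows. The motif TATAAA, searched on both strands, was present in 36.2% of receptor windows and in 14.2% of all, with 44.3% of type 1 and 22.7% of type 2 windows. The octamer motif ATTTGCAT on either strand, which POU-family factors such as Pou5f1 bind, was present in 4.10% of receptor windows and 1.75% of all. That was 12 receptor windows, with 2.73% of type 1 and 6.36% of type 2 windows. Whether such a factor acts there was not tested. The motif TCAAGGTCA, a site of orphan nuclear receptors of the Nr5a family that act in gonadal somatic cells, was present in 0.341% and 0.407%. Windows without a CG made up 34.5% of the 116 receptors listed above 0 in male germ cells and 20.8% of the 168 listed at 0 there.

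Levels are given in SPM, the deposited gene signal per 1000000 of library total after trimmed-mean-of-M (TMM) scaling. The low values of each library cluster at a fixed spacing, taken here as the worth of 1 sequenced fragment. By that estimate the libraries held 24.9 M fragments (male germ), 17.5 M (female germ), 17.6 M (male somatic) and 24.2 M (female somatic), where M stands for 1000000. A common floor of 0.179 SPM, worth 3 fragments of the shallowest library, separates levels called above the floor from the rest. The germ cell markers Ddx4 and Mael, both needed for the germ line, were higher in germ than in somatic cells, with Ddx4 at 527, 383, 3.81 and 0.467 SPM in the order male germ, female germ, somatic male and somatic female, which every later series of 4 values follows. Traces of somatic RNA were present in the male germ library, where the fetal Leydig cell enzyme Cyp17a1 stood at 20.6 SPM (367 in male somatic cells) and the red cell globin Hbb-b1 at 157 SPM (15791 in male somatic cells). The other libraries held such traces too. Hbb-b1 stood at 49.0 SPM in female germ cells (7413 in female somatic cells). Mael stood at 8.29 SPM in male and 1.31 SPM in female somatic cells (908 and 602 in germ cells).

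Most vomeronasal receptors were not detected at this depth, and male germ cells differed from the other fractions in how many were touched by reads. In male germ cells 130 of 319 receptors (40.8%) were listed above 0, against 29 (9.09%) in female germ cells. Male somatic cells had 21 (6.58%) and female somatic cells 35 (10.97%). Over all genes the shares were 90.4%, 77.3%, 78.7% and 79.8%, so receptors were read less often than the average gene in every fraction. The estimated depths behind the 130 and the 35 were 24.9 M and 24.2 M fragments. A total of 176 receptors (55.2%) were listed at 0 in all 4 libraries, against 7.86% of all genes.

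Signal per gene was close to the limit of detection. Of the 130 receptors above 0 in male germ cells, 15 held less than the worth of 0.5 fragments, 19 about 1 fragment, 19 about 2 and 77 at least 3. Only 18 held 10 or more. Above the common floor were 52 receptors (16.3%; background 82.7% of all genes) in male germ cells and 20 (6.27%; background 73%) in female germ cells. The male somatic library had 8 (2.51%; background 74%) and the female somatic library 13 (4.08%; background 73.7%). Levels of 1 SPM or more were reached by 5, 3, 3 and 2 receptors.

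**Figure D1:**
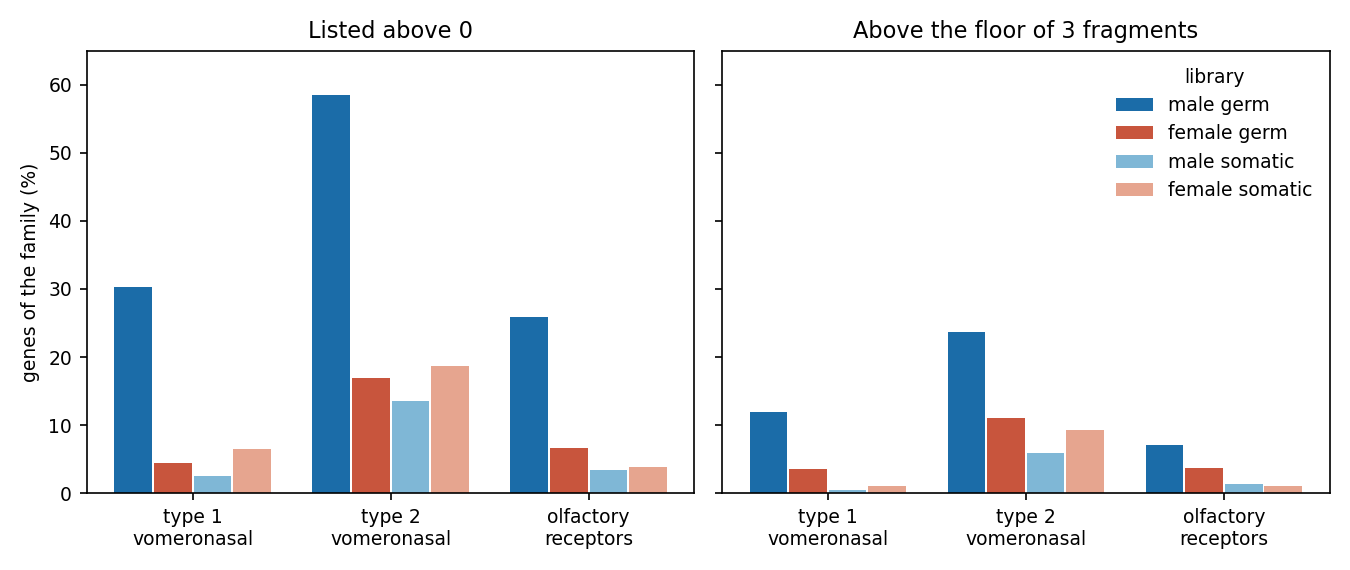
Share of genes (%, vertical axis) listed above 0 (left) and above the floor of 3 fragments (right) for type 1 and type 2 vomeronasal receptors and olfactory receptors, with 1 bar for each library. The male germ bar is the highest in each family, for example 58.5% of type 2 receptors above 0 against 16.9% in female germ cells.

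The total receptor signal differed much less than the number of receptors. It summed to 27.8 SPM in male germ cells (exact Poisson 95% interval 25.8 to 29.9, counting error only), 19.3 SPM in female germ cells (17.2 to 21.5), 10.8 SPM in male somatic cells (9.25 to 12.5) and 9.33 SPM in female somatic cells (8.19 to 10.62). In male germ cells the 3 highest receptors held 15.9% of that sum, whereas the 3 highest of the other libraries held 50.6%, 64.2% and 44.3%. Male germ signal was thus spread thinly over many receptors, while a few genes made up most of it in female germ and male somatic cells. The plot of ranked levels shows the same shape.

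**Figure D2:**
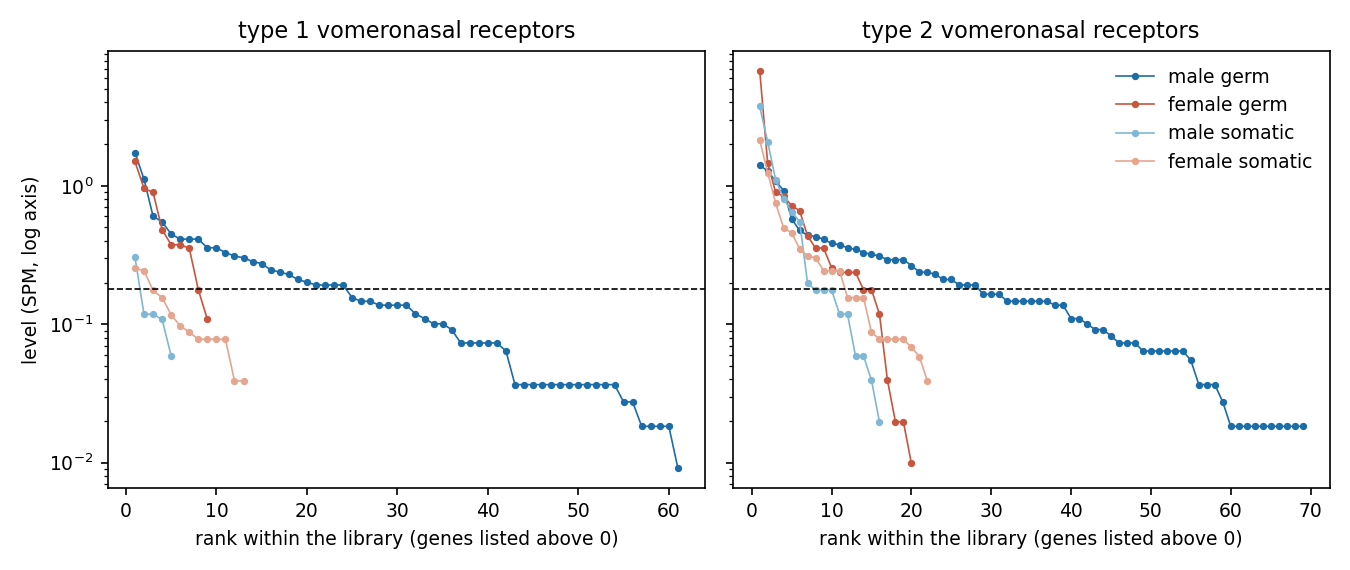
Level of each receptor above 0 (SPM, log axis) against its rank within a library, for type 1 (left) and type 2 (right) receptors, with the floor of 0.179 SPM as a dashed line. The male germ curve runs on to 61 type 1 and 69 type 2 receptors, past the 13 and 22 of the female somatic library, and its lower steps are levels of 1 and 2 fragments.

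Type 2 receptors were listed more often than type 1 receptors. In male germ cells 69 of 118 type 2 receptors (58.5%) and 61 of 201 type 1 receptors (30.3%) were above 0. The other libraries had 20, 16 and 22 type 2 receptors and 9, 5 and 13 type 1 receptors. Type 2 genes are longer, with a median listed length of 2574 bases against 928, and a longer gene collects more reads at the same level. Signal per 1000 bases, summed over each type, was 0.0539 SPM for type 1 and 0.0483 SPM for type 2 in male germ cells, so per length both types lay at a like level there. In somatic cells type 2 was the higher per length, with 0.0314 against 0.00310 SPM in males and 0.0243 against 0.00664 SPM in females.

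Receptors above the floor in male germ cells and below it in the other 3 libraries numbered 35 (10.97% of members, background 5.22%), 18 of type 1 and 17 of type 2. In female germ cells alone there were 6 (1.88%, background 0.941%), in the male somatic library alone 0 (background 0.542%) and in the female somatic library alone 1 (0.313%, background 0.522%). A further 9 were above it in both germ libraries and 4 in both somatic libraries. The order differs when only genes at 0 in the other 3 libraries are taken as the base. Of 261 such receptors male germ cells showed 25 above the floor (9.58%) and 85 above 0 (32.6%), against 18.9% and 44.2% of all 2860 such genes. Olfactory receptors, the related odorant receptors of the main nasal epithelium, gave 21.6% above 0 of 981. By the same count of values above 0 the other libraries showed 2 of 178 receptors (1.12%, background 4.83%) in female germ, 1 of 177 (0.565%, background 2.68%) in male somatic and 8 of 184 (4.35%, background 5.11%) in female somatic cells. Many genes outside the receptor families were thus also read in male germ cells and at 0 in the other libraries.

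The type 1 receptor with the highest level in any library was Vmn1r195 (chr13:22370185-22371273, plus strand, mm9 as in the files). It stood at 1.74 SPM in male germ cells, about 46 fragments, and was listed at 0 in the other 3. That is at least 9.68-fold above the floor that a 0 allows in female germ cells and in male somatic cells alike. Its transcript shares no 100-base stretch with another GENCODE transcript.

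V1ra8 (chr6:90152810-90153650, plus strand) followed with 1.12 SPM in male germ cells and 0 in the other 3, at least 6.22-fold higher than in female germ cells. Its neighbour Vmn1r52 reached 0.603 SPM in the same library and was at 0 elsewhere. Of the 100-base windows of V1ra8, 49.8% also occur in Vmn1r52, so how reads were divided between these neighbours is uncertain. Vmn1r179 and Vmn1r118 on chromosome 7 each had 0.411 SPM in male germ cells alone. Vmn1r179 shares no window with another transcript, whereas Vmn1r118 shares 91.5% of its windows with other genes and its listed row spans from 20818256 to 23014503.

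Several type 1 receptors were read in both germ libraries. Vmn1r90 (chr7:15146590-15147520, minus strand) was the highest of them, at 0.549, 1.498, 0.108 and 0.243 SPM. Of its windows, 18.9% also occur in Nlrp5-ps, which is not a receptor gene. Female germ cells were 2.73-fold higher than male germ cells (95% interval 1.35 to 5.42, exact conditional binomial, counting error only) and 6.16-fold higher than female somatic cells (2.499 to 18.6). Vmn1r53 had 0.329 SPM in the male and 0.897 SPM in the female germ library, and Vmn1r47 had 0.448 and 0.375 SPM, all with 0 in both somatic libraries. Vmn1r48 had 0.411 and 0.375 SPM in the germ libraries and 0 in the somatic ones. Vmn1r48 shares 54.0% of its windows with other genes, and 43.2% with Vmn1r47, so how reads were divided between these neighbours is uncertain. Vmn1r53, Vmn1r47 and Vmn1r48 were thus listed above 0 in germ cells of both sexes and at 0 in somatic cells. The values of Vmn1r47 and Vmn1r48 may not be independent. Vmn1r32 was read in every library, at 0.201, 0.956, 0.305 and 0.253 SPM, with the high value in female germ cells. Vmn1r218 was at 0.483 SPM in female germ cells and 0 elsewhere.

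Among type 2 receptors, Vmn2r1 (chr3:63885563-63909380, plus strand) had the highest level of any receptor in any library. It is the first of the family C genes, Vmn2r1 to Vmn2r7, which in the vomeronasal organ are expressed broadly together with other type 2 receptors. It stood at 0.210 SPM in male germ cells, 6.79 SPM in female germ cells, 1.10 SPM in male somatic cells and 2.14 SPM in female somatic cells. Female germ cells were 32.3-fold above male germ cells (13.5 to 84.2) and 3.17-fold above female somatic cells (2.27 to 4.46), and male somatic cells were 5.24-fold above male germ cells (1.83 to 14.8). The order of levels was female germ, female somatic, male somatic and male germ cells, and the somatic libraries were the closest, 1.94-fold apart (1.15 to 3.61). No other family C gene passed 0.179 SPM in female germ cells. Vmn2r2 and Vmn2r3 lay just under that floor at 0.177 SPM each, and Vmn2r4 to Vmn2r7 were listed at 0.

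Vmn2r118 (chr17:55731638-55763970, minus strand) was a type 2 receptor of both germ libraries, at 0.923, 1.45, 0 and 0.0778 SPM. It shares no window with another transcript. Male germ cells were at least 5.15-fold above male somatic cells, while the germ libraries were 1.57-fold apart with an interval (0.837 to 2.79) that includes no difference. Vmn2r87 had 0.375, 0.838, 0.0394 and 0.496 SPM and was the last gene of a chromosome 10 group, Vmn2r84 to Vmn2r87, whose 4 genes were all above 0 in both germ libraries. Vmn2r27 showed the higher value in female germ cells, with 0.0640, 0.897, 0 and 0 SPM, a ratio between the germ libraries of 14.0 (2.78 to 108) that rests on about 2 male fragments.

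The other high type 2 receptors of male germ cells are less certain in identity. Vmn2r62 had 1.41, 0.660, 0.177 and 0 SPM, but shares 62.6% of its windows with the gene model Gm9268, which was listed at 0.878, 0.118, 0.177 and 0 SPM. Vmn2r46 had 1.28, 0, 0 and 0.0876 SPM, but its windows recur in 48 other genes (95.7% of them shared) and its listed row spans from 8317008 to 10355920 on chromosome 7. Vmn2r57 had 1.08, 0.434, 0 and 0.350 SPM with 36.0% of its windows shared. Vmn2r24 had 0.576, 0.118, 0 and 0 SPM. Removing the receptors that share at least 50% of their windows, an alternative chosen after seeing the data, left 45, 18, 8 and 13 receptors above the floor in the 4 libraries, beside the 52, 20, 8 and 13 before. Shares are taken over whole GENCODE transcripts, which can be longer than the listed gene. Vmn2r21 (96.9% shared) was removed, while Vmn2r20 (10.8% of 15550 windows shared, listed length 2568 bases) stayed. Both had 0.293 SPM in male germ cells, so near copies can remain among those left.

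Between single libraries, few receptors were far apart. Of 58 receptors above the floor in at least 1 germ library, 3 were at least 4-fold higher in male germ cells (5.17%, background 17.3%), namely Vmn1r195, Vmn2r46 and V1ra8, with levels under the floor set to the floor. Another 3 were at least 4-fold higher in female germ cells (5.17%, background 8.54%), namely Vmn2r1, Vmn2r27 and Vmn1r32. Both shares lay below their backgrounds, and levels near the floor leave little room for a 4-fold difference. The median log2 ratio of male over female germ cells was 0.41 over these receptors and 0.21 over all 17129 genes compared. Of these receptors 35 were above the floor in male germ cells alone and 6 in female germ cells alone. The floor that admitted them thus shapes this median, and no direction is read from it.

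Against male somatic cells, 6 of 56 receptors were at least 4-fold higher in male germ cells (10.7%, background 15.8%) and 4 at least 4-fold lower (7.14%, background 16%). The 6 were Vmn1r195, V1ra8, Vmn2r46, Vmn2r57, Vmn2r62 and Vmn2r118, and the 4 were Vmn2r1, Vmn2r11, Vmn2r12 and Vmn2r13. In females 5 of 28 receptors were at least 4-fold higher in germ than in somatic cells (17.9%, background 13.5%) and 2 were lower (7.14%, background 23.1%). The 5 were Vmn1r53, Vmn1r90, Vmn2r27, Vmn2r84 and Vmn2r118, and the 2 were Vmn2r12 and Vmn2r13. None of the 13 receptors compared between the somatic libraries was 4-fold apart in either direction (backgrounds 4.22% and 4.24%).

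By chromosome, most type 1 receptors lie on chromosomes 7 (95 positions), 6 (52) and 13 (36). The share above 0 in male germ cells was 17.9% on chromosome 7, 34.6% on chromosome 6 and 50% on chromosome 13, and 4 of 14 were above 0 on chromosome 17. Of the chromosomes, chromosome 6 had the largest part of the type 1 signal in the germ libraries, 4.48 SPM of 12.3 SPM in male and 2.96 SPM of 5.22 SPM in female germ cells. In male germ cells chromosome 7 had 3.54 SPM and chromosome 13 had 3.24 SPM, of which Vmn1r195 made up 1.74 SPM. In female germ cells chromosome 7 followed with the 1.498 SPM of Vmn1r90, its 1 type 1 receptor above 0 there. Type 2 receptors were above 0 in male germ cells at 21 of 50 positions on chromosome 7, 18 of 30 on chromosome 17, 7 of 11 on chromosome 5, 7 of 9 on chromosome 6, all 8 on chromosome 10, 6 of 7 on chromosome 3 and both on chromosome 14. In female germ cells chromosome 3 held 7.15 SPM of the 14.0 SPM of type 2 signal, nearly all of it Vmn2r1, and in male somatic cells chromosome 5 held 8.198 SPM of 10.07 SPM. The X chromosome has 1 receptor, Vmn2r121, listed at 0 in all 4 libraries.

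The receptors form 26 groups when genes under 1 Mb apart on a chromosome are joined, of which 16 hold 3 or more positions, 7 hold 1 and the largest holds 55. In male germ cells every one of the 16 had a receptor above the floor. The other 3 libraries had such a receptor in 9, 3 and 5 of them. Larger clusters hold more genes that can pass, so these numbers describe reach and not level. Coverage in male germ cells ran from 18.2% of the 55 positions of Vmn1r91 to Vmn1r183 on chromosome 7 to all 4 of Vmn2r80 to Vmn2r83 on chromosome 10. The 36 type 1 genes Vmn1r188 to Vmn1r223 on chromosome 13, next to histone gene Hist1h2bj, had 18 above 0 in male germ cells and 2, 1 and 1 in the other libraries.

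**Figure D3:**
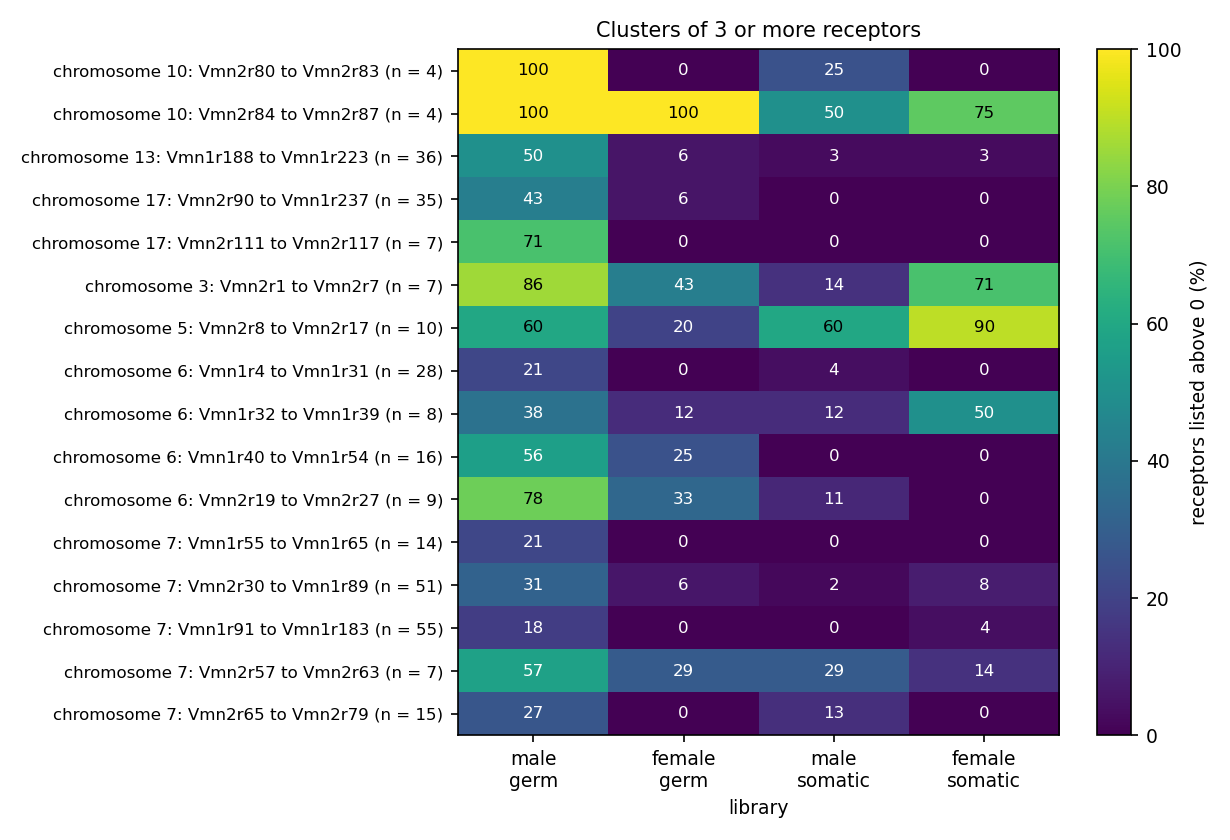
Share of receptors listed above 0 (%, colour and printed number) in each library (columns) for the 16 clusters of 3 or more receptors (rows, with the number of positions). Female somatic cells are highest in the chromosome 5 cluster and in Vmn1r32 to Vmn1r39 on chromosome 6, both germ columns are at 100% for Vmn2r84 to Vmn2r87, and male germ cells are highest in the other rows.

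The chromosome 5 cluster, Vmn2r8 to Vmn2r17 (chr5:109226211-109882406) was read mainly in somatic cells. Its 10 genes summed to 0.567, 0.0296, 8.001 and 3.58 SPM, high in both somatic libraries and lowest in female germ cells. Above the floor were 1, 0, 5 and 6 of the 10. Vmn2r12 (chr5:109514867-109526883, minus strand) led with 0.192, 0.00986, 3.74 and 1.25 SPM, 19.5-fold higher in male somatic than in male germ cells (8.08 to 63.4). Vmn2r13 followed with 0.0823, 0.0197, 2.08 and 0.749 SPM and Vmn2r11 with 0.0183, 0, 0.807 and 0.457 SPM. The male somatic library was the higher of the somatic pair for both leading genes, 3.003-fold for Vmn2r12 (1.93 to 4.80) and 2.77-fold for Vmn2r13 (1.54 to 5.13).

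The genes of this cluster differed in order along the chromosome. The somatic signal was highest at Vmn2r12 and Vmn2r13 in the middle and lower at all genes on either side. Vmn2r14 had 0.0183, 0, 0.650 and 0.311 SPM and Vmn2r9 had 0.165, 0, 0.551 and 0.302 SPM, both again high in the somatic libraries. Vmn2r10 had 0, 0, 0.177 and 0.243 SPM. At the edges Vmn2r8, Vmn2r15 and Vmn2r16 stayed under the floor in all 4 libraries, and Vmn2r17 was listed at 0. The transcripts of Vmn2r12 and Vmn2r13 share 3.66% and 1.83% of their 100-base windows with other genes. Outside the cluster, Tmed11 on one side was listed at 0 in all libraries, and Crlf2 on the other stood at 2.59, 20.6, 4.01 and 2.95 SPM, highest in female germ cells. Vmn2r18, the remaining type 2 gene of this chromosome, had 0.192, 0, 0.197 and 0.243 SPM.

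**Figure D4:**
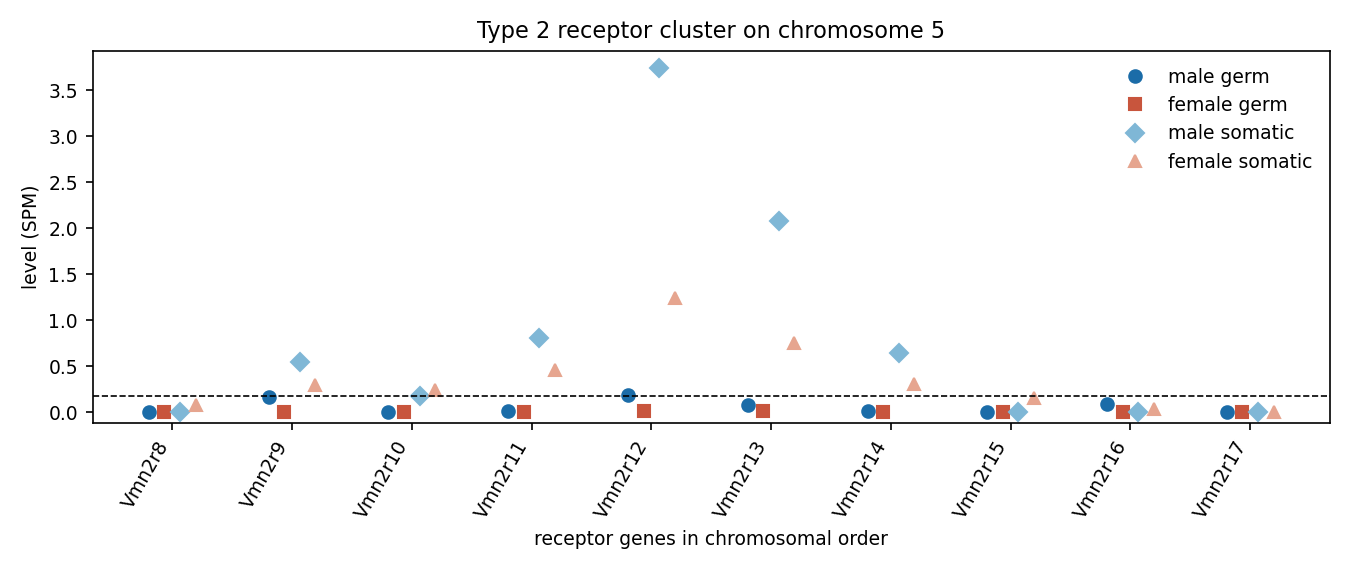
Level (SPM, linear axis) of the 10 type 2 receptors of the chromosome 5 cluster in chromosomal order, 1 symbol per library, with the floor of 0.179 SPM as a dashed line. Male somatic cells are highest at Vmn2r12 (3.74 SPM) and Vmn2r13 (2.08 SPM), female somatic cells follow at 1.25 and 0.749 SPM, and the germ libraries lie at or near the floor or below it.

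Markers of several somatic cell types move the same way as this cluster between the somatic libraries. The 3 stroma markers (Pdgfra, Col1a1, Nr2f2) summed to 3968 SPM in male and 1341 SPM in female somatic cells, the 3 red cell markers to 15945 and 7508, the 3 fetal Leydig markers to 703 and 60.04 and the 2 leukocyte markers to 20.3 and 8.63. The 3 Sertoli markers summed to 388 and 8.40 SPM, while the 3 pregranulosa markers ran the other way, with 93.2 and 849 SPM. Relative to these, the male germ library held 89.3 SPM for stroma, 158 for red cells and 37.9 for Leydig cells, beside 0.567 SPM of the cluster. Of the 2 leukocyte markers, Ptprc, the pan-leukocyte phosphatase, was listed at 0 in both germ libraries. The other, Csf1r, stood at 1.49, 1.21, 18.7 and 7.47 SPM. The part of these cell types in the cluster's signal was not tested.

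Germ against somatic cells is the comparison with 2 libraries on each side, 1 of each sex. Nothing in the labels says that these libraries came from separate animals, so its p-values measure only the spread between them. Only Vmn2r1 and Vmn2r12 reached 1 SPM in 2 libraries and could be tested among 14148 genes. Neither passed limma's moderated test with Benjamini-Hochberg adjustment at 0.05 (background 2.5% of genes higher and 5.56% lower in germ cells), and 1 of the 2 had an unadjusted p under 0.05. Vmn2r12 was lower in both germ libraries than in either somatic one, with a log2 difference of -2.20 ± 0.69 (SE, limma, adjusted p = 0.106). Vmn2r1 gave 0.15 ± 1.23 (SE, limma, adjusted p = 0.949), with female germ cells above and male germ cells below both somatic libraries. With all genes above the floor in at least 1 library admitted, 63 receptors were tested by limma. None passed (background 1.01% higher and 2.59% lower) and 5 had an unadjusted p under 0.05. The median log2 difference of these 63 was 0.36, against 0.07 over all genes. Of the 63, 35 were above the floor in male germ cells alone, 4 in both somatic libraries only and 1 in female somatic alone. Admission thus favoured a positive median, and no direction is read from it. With sex as a term, which pairs the germ and somatic library of each sex, neither Vmn2r1 nor Vmn2r12 passed limma (background 7.73% higher and 13.8% lower).

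The cluster of Vmn1r40 to Vmn1r54 on chromosome 6 had a pattern opposite to that of chromosome 5. Its 16 type 1 genes, which include V1ra8, summed to 3.57, 2.00, 0 and 0 SPM. Both germ libraries thus held signal and neither somatic library held any. This was not particular to the cluster. The 35 positions of Vmn2r90 to Vmn1r237 on chromosome 17 summed to 1.97, 0.414, 0 and 0 SPM. Vmn2r88 and Vmn2r89 on chromosome 14 summed to 0.594, 0.256, 0 and 0 SPM. Of the 16 genes on chromosome 6, 9 were above 0 in male germ cells and 4 in female germ cells. The 4 of female germ cells were Vmn1r47, Vmn1r48, Vmn1r51 and Vmn1r53, of which Vmn1r47 and Vmn1r48 share windows and may not be independent. Vmn1r51 had 0.311 and 0.355 SPM in the male and female germ libraries. All 4 genes of female germ cells were above 0 in male germ cells too, which added V1ra8, Vmn1r52 and Vmn1r43 (0.192 SPM) above the floor and 2 genes below it. A value of 0 allows up to 3 fragments, worth 0.180 SPM per gene in the male and 0.120 SPM in the female somatic library. On the left the cluster borders Txnrd3, a thioredoxin reductase known from the testis, at 223, 122, 22.9 and 23.1 SPM, and on the right the gene model BC048671, at 0.393, 0, 0 and 0 SPM.

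**Figure D5:**
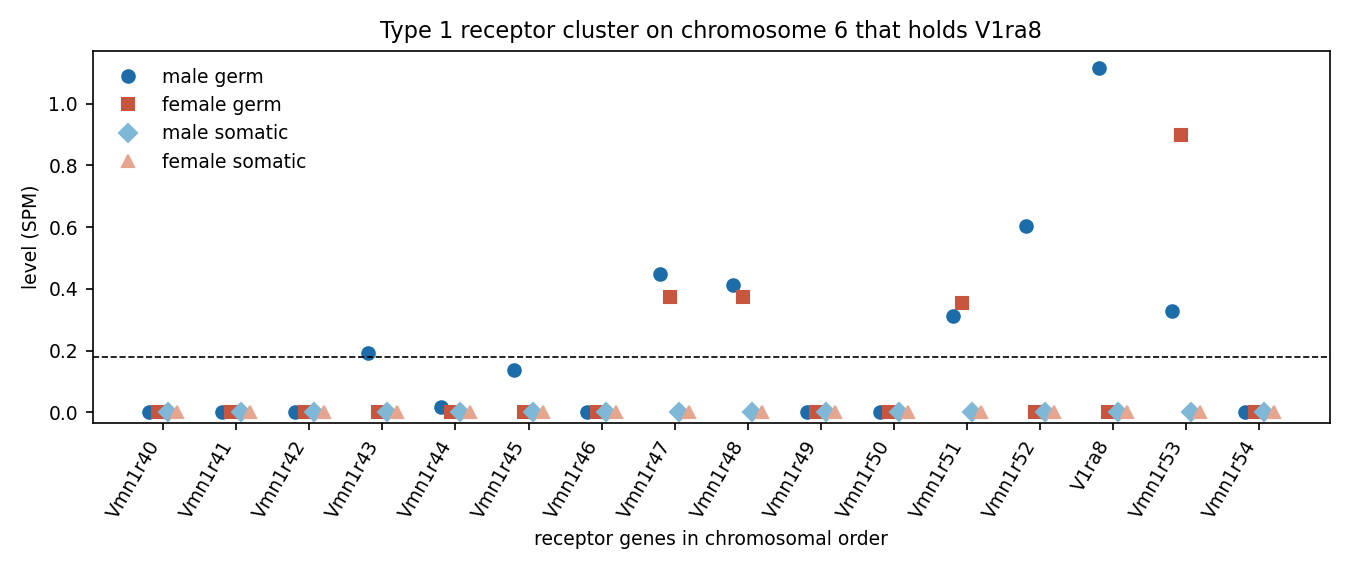
Level (SPM, linear axis) of the 16 type 1 receptors of the chromosome 6 cluster in chromosomal order, 1 symbol per library, with the floor of 0.179 SPM as a dashed line. V1ra8 (1.12 SPM) and Vmn1r52 (0.603 SPM) rise in male germ cells alone, Vmn1r53 is highest in female germ cells (0.897 SPM), and both somatic libraries are at 0 throughout.

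The clusters also hold 80 genes listed under other symbols. Of these, 50, 37, 39 and 36 were above 0 in the 4 libraries (backgrounds 90.4%, 77.3%, 78.7% and 79.8%). Some of these are gene models close to receptors, such as Gm4175, which holds 97.2% of the windows of Vmn1r126. Trim28, a corepressor of retroelements and imprinted loci, had 1005, 958, 1035 and 1151 SPM. Ppp2r1a, the scaffold subunit of protein phosphatase 2A, had 920, 89.0, 581 and 512 SPM, with a low value in female germ cells. The membrane-scission protein gene Chmp2a had 283, 205, 82.5 and 59.96 SPM and the zinc finger gene Zfp329 had 159, 44.5, 45.8 and 36.6 SPM, both highest in male germ cells. Trim28, Chmp2a and Zfp329 lie in the same chromosome 7 group, Vmn2r30 to Vmn1r89, in which most receptors were at 0. A receptor row overlaps such a gene at 36 positions, and of those receptors Vmn1r118 was above the floor.

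The partners of the receptors in the vomeronasal neuron differed in pattern. All 21 genes of the signal transduction list were listed, and 15 could be tested between germ and somatic cells by limma, of which 0 were higher (background 2.5%) and 1 was lower (background 5.56%), with 8 at an unadjusted p under 0.05 and a median log2 difference of -1.56. The lower one was Adcy2, an adenylyl cyclase, at 12.4, 14.4, 120 and 75.6 SPM (log2 difference -2.79 ± 0.50, SE, limma, adjusted p = 0.0422). Trpc2, the channel both receptor types need, was read at a like level in all 4 fractions, with 31.7, 41.5, 24.99 and 29.4 SPM. Gnao1, the partner of type 2 receptors, had 24.3, 7.57, 7.03 and 7.22 SPM, high in male germ cells. Gnai2, the partner of type 1 receptors and a widely expressed subunit, had 93.6, 22.2, 200 and 230 SPM and was 4.21-fold higher in male than in female germ cells (3.78 to 4.71). The chloride channel gene Ano2 had 4.96, 0, 0.207 and 0.204 SPM, at least 27.7-fold lower in female than in male germ cells. Kcnn3, a calcium-activated potassium channel, had 1.10, 0, 12.8 and 5.50 SPM. The trafficking genes Rtp1 and Rtp2, which carry odorant receptors to the membrane, were read in male germ cells alone, at 0.375 and 0.357 SPM.

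Other receptors and accessory genes of the organ followed the low pattern of the receptors. The H2-M genes encode class I-like proteins found with type 2 receptors at the surface of basal neurons. All 9 listed H2-M genes were above 0 in male germ cells, and only 1 of them, H2-M10.2, was above 0 in the other 3 libraries (0.384, 0.148, 0.276 and 0.0389 SPM). Over all genes 90.4%, 77.3%, 78.7% and 79.8% were above 0 in the 4 libraries. H2-M10.3 was the highest, with 0.521 SPM in male germ cells and 0 elsewhere, and 7 of the 9 were below 0.179 SPM there. Their partner B2m, the light chain of all class I molecules, had 23.4, 10.8, 66.1 and 26.7 SPM. Of 6 listed formyl peptide receptors, another vomeronasal family that also acts in leukocytes, 1, 0, 2 and 2 were above 0, with Fpr1 and Fpr2 in the somatic libraries. Of 8 listed pheromone carrier genes, 4, 0, 1 and 2 were above 0, and Mup3, a major urinary protein, had 0.905 SPM in male germ cells and 0 in the others (at least 5.04-fold above female germ cells).

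Of 18 transcription factor genes of the vomeronasal neuron lineage, 12 could be tested by limma between germ and somatic cells. Of these 0 were higher (background 2.5%) and 0 lower (background 5.56%), with 5 at an unadjusted p under 0.05 and a median log2 difference of -0.57. Between the germ libraries, female germ cells were higher for Emx2 (0.210 against 1.91 SPM, 9.09-fold, 3.51 to 24.9), Ebf3 (1.55 against 6.25 SPM, 4.02-fold, 2.79 to 5.95) and Ebf4 (1.98 against 16.4 SPM, 8.24-fold, 6.10 to 11.2). Male germ cells were higher for Ebf1 (0.896 SPM against 0, at least 4.99-fold) and Ebf2 (0.832 against 0.118 SPM, 7.03-fold, 1.70 to 60.6). The 8 markers of vomeronasal sensory neurons, several of which other cells express, summed to 162, 76.1, 454 and 424 SPM. Of these markers 8, 7, 8 and 8 were above 0 (backgrounds 90.4%, 77.3%, 78.7% and 79.8%). Their levels differed widely. Omp, the marker of mature olfactory and vomeronasal neurons, had 1.34, 0.739, 0.925 and 0.156 SPM, the growth-associated gene Gap43 had 0.210, 0, 0.305 and 0.467 SPM, and Gng8, the G protein subunit of vomeronasal neurons, had 0.393, 0.296, 3.68 and 3.51 SPM. The adhesion molecule gene Ncam1, which somatic cells also express, was lower in germ cells, with 9.39, 3.69, 217 and 152 SPM (log2 difference -4.82, limma, adjusted p = 0.0345).

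Of the genes that transduce odorant signals in the main olfactory epithelium, 7 were listed, of which 2 were at least 4-fold higher in male germ cells (background 17.3%) and 1 in female germ cells (background 8.54%). Gnal, the olfactory G protein subunit, had 34.0, 0.621, 15.5 and 20.1 SPM and was 54.8-fold higher in male than in female germ cells (30.8 to 119). Of the cyclic nucleotide-gated channel genes, Cnga4 had 0.521, 5.78, 0.236 and 0.117 SPM, 11.1-fold higher in female germ cells (6.27 to 20.9), and Cngb1 had 0.832, 0, 0.0984 and 0.156 SPM.

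Other large clustered families were also read at more genes in male germ cells. Olfactory receptors, 1110 genes, had 287 above 0 in male germ cells (25.9%) and 73, 38 and 43 in the other 3 libraries, so their share in male germ cells was below the 40.8% of vomeronasal receptors. Per 1000 bases of gene their summed male germ signal was 0.0476 SPM, against 0.0506 SPM for the vomeronasal receptors. Upstream regions of olfactory receptors held a median of 1 CG as well, 41.1% contained TATAAA and 2.65% contained ATTTGCAT. Defensins, clustered genes of antimicrobial peptides, had 23 of 55 above 0 in male germ cells (41.8%) and 4, 4 and 9 in the others. Their summed signal ran differently from that of the receptors, with 18.7, 0.266, 196 and 11.3 SPM, and 1 defensin gave 186 SPM in male somatic cells.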

How the data were processed

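RNA of flow-sorted germ and gonadal somatic cells was depleted of ribosomal RNA and sequenced as strand-specific paired-end libraries, per the labels' protocols. CASAVA 1.9, TopHat 1.2.0, edgeR and mm9 are named, without roles, per the submitters' processing notes. Which program counted reads, on what annotation and whether by strand are points not given in the sources used here, so a receptor and an antisense transcript cannot be told apart. The deposited values are a gene signal in whole numbers, although the file headers name it counts. Low values recur at multiples of 4.105 (male germ, female somatic), 6.07 (female germ) or 6.11 (male somatic), and the totals lie between 99.3 M and 107.5 M. The signal was therefore treated as scaled by the authors and not as raw counts. At most 54.3% of nonzero values up to 60 lay on the spacing, against 15% to 23.3% by chance, so fragment numbers are estimates. PCR copies are not independent molecules, so intervals and floors cover counting error only. The deposited length column gave levels per 1000 bases.

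Rows repeating another row's position and 4 values were dropped (74 rows, 9 of them receptors), and a receptor's row was the one kept. TMM factors (1.07, 0.956, 0.945 and 1.03) were computed in Python 3.11.15. Ratios between libraries carry exact conditional binomial 95% intervals, and calls needed at least 4-fold with levels under the floor set to the floor. Germ against somatic cells was fitted with limma 3.58.1 in R 4.3.3 (mean-variance trend, log2(SPM + 0.5), Benjamini-Hochberg adjustment, threshold 0.05) over genes that reached 1 SPM in at least 2 libraries. This scale understates changes of low genes. The fit was also run on simulated data, with large changes set and no difference between the sexes. That run checks the code and not the results for receptors. Promoter windows came from RefSeq (GRCm38.p6) and matched 293 of 328 symbols. Shared 100-base windows came from GENCODE transcripts on GRCm38, which matched 323. Coordinates of levels are mm9 as deposited and those of printed sequences are GRCm38.p6. A listed row spans over 0.4 Mb at 17 receptor positions, and 55 positions overlap another receptor.

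The members and gene lists were chosen with earlier results of these data known. Named were, of each type, the 10 receptors with the highest level in any library, the 3 highest in each library, the 5 with the largest and smallest ratio of male over female germ cells, and receptors that pass limma. Of the lists, genes that pass limma or differ at least 4-fold between the germ libraries were named, and of other genes inside clusters the 5 highest, 1 of which is not reported here. Other genes named, such as neighbours of a described receptor, were chosen after their values were seen.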

Additional observations from a re-analysis of the deposited data

Results flagged for a closer look

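Vmn2r1 differed in direction between the sexes. The log2 ratio of germ over somatic cells was -2.39 in males (0.210 against 1.10 SPM) and 1.67 in females (6.79 against 2.14 SPM). Each value sets 1 library against 1, and the difference between the sexes was not tested.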

How the results depend on the processing

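Counts of receptors above the floor depended on where the floor was set. Counting any value above 0 gave 130, 21 and 35 receptors in male germ, male somatic and female somatic cells and 85 in male germ cells alone, and a floor of 1 SPM gave 5, 3, 3 and 2 in the 4 libraries. At 2-fold, 13 receptors were higher in male germ cells and 7 lower than in female germ cells, and 19 were higher in male germ than male somatic cells. With 1 SPM as the floor for ratios, 0 receptors were higher in male germ than in female germ cells, 1 was lower, and 0 were higher and 0 lower against male somatic cells. Without the 3 highest receptors of each library the summed signals were 23.4, 9.51, 3.86 and 5.20 SPM, and with upper-quartile factors the male germ sum was 32.4 SPM. The other 54 values kept within a limit of 1.5 times for counts or within the counting interval for sums. The log2 difference of Vmn2r1 changed sign with a pseudocount of 0.1 (-0.17) and ranged from -1.53 to 1.83 when each library was left out. That of Vmn2r12 stayed negative in all limma fits, with an adjusted p between 0.0513 (sex as a term) and 0.477 (without the male somatic library). No receptor passed limma in any of the fits with all 4 libraries. The main fit tested only 2 receptors (background 2.5% of genes higher and 5.56% lower in germ cells). With no filter on low values 143 receptors were tested. There 0 of all 18703 genes passed, so that fit cannot set receptors apart from other genes. Depth limits these values, since a 0 allows up to 3 fragments. The fit with sex as a term is the one that pairs the libraries. No paired analysis was possible for the other comparisons, because each sets 1 library against 1.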
